A study of Mus musculus with 9 samples.

Results

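Imprinted genes were examined in mouse embryonic fibroblasts (MEFs) that expressed a CRX protein from one of 2 mammalian lineages. The set held 41 known mouse imprinted genes, chosen by name and not by any measured value, and the count table of 22068 genes had a row for 34 of them. The other 7 (H19, Airn, Meg3, Rian, Mirg, Kcnq1ot1 and Peg13) are long non-coding RNAs, whose levels are not analysed here. Of the 34 genes, 22 reached a mean above 2 FPKM (counts scaled to exon length and library size) in at least 1 condition and were tested among 10177 genes, 10 had enough counts but too low a level, and Magel2 and Snrpn had almost no counts.

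Most genes are read from both parental copies, whereas an imprinted gene is read mainly or only from the copy inherited from one parent, because methylation laid down in the egg or sperm marks a control region near it. Imprinted genes lie in clusters, and neighbours of opposite parental expression often share a control region. Many of them act on fetal growth, with paternally expressed genes such as Igf2 promoting it and maternally expressed genes such as Igf2r and Grb10 restraining it, and several are highly expressed in embryonic mesenchyme, from which MEFs derive. By the allele known to be expressed, the 41 genes comprise 22 paternal, 16 maternal and 3 isoform-dependent genes, of which 10, 9 and 3 were tested. The parental origin of the reads was not measured, so every value below is the level summed over both copies.

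The cells were primary MEFs of C57Bl/6 mice at passage 2, electroporated with a plasmid that carried a puromycin resistance gene, placed under puromycin for 5 days and given 48 hours of recovery, which the labels place after the selection and the study's methods before it. Control cells received resistance without a homeobox gene, eutherian CRX cells received v5-tagged human CRX, and metatherian CRX cells received v5-tagged opossum CRX. CRX is a homeodomain transcription factor of photoreceptors, so its presence in fibroblasts was ectopic. There were 3 libraries of each condition, from 54145701 to 94699657 counts, and the labels do not say whether they came from separate cultures and the study's methods speak of triplicate harvests, so that p-values measure the spread between these libraries, which may be technical. The row of mouse Crx held 313 to 995 counts in the eutherian CRX libraries, 0 in the control libraries and 0 to 4 in the metatherian CRX libraries, so that it checks the labels for the human gene alone.

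Libraries of one condition did not lie equally close. Over all genes tested, the SD of the log2 difference between replicates 1 and 2 was 0.149 to 0.255, and between replicate 3 and either of them 0.446 to 0.885, the highest in eutherian CRX. The summed level of 10 fibroblast markers was 42165 to 48337 CPM (counts scaled to library size) in control, 39397, 37348 and 18434 in eutherian CRX and 44234, 43786 and 22693 in metatherian CRX. The eutherian CRX libraries were thus all below control, and replicate 3 was lowest in each condition. Of the 10 markers, 9 had fitted values below 0 with eutherian CRX and 8 with metatherian CRX, with median log2 fold changes of -0.68 and -1.02, and edgeR called 0 in either comparison. Values without single libraries or without all libraries numbered 3 are given beside the genes whose calls they change, apart from fitted values of Zrsr1. Without the libraries numbered 3, edgeR called a far larger share of all genes in every comparison than with all libraries. These shares are given at the end, and calls of single genes in that fit are to be read beside them. In bulk RNA, fewer cells of a type and less RNA per cell cannot be told apart.

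The sequences shown here are the starts of Peg3 and Zim1 on chromosome 7 and of Mest on chromosome 6, the tested genes of the set with the largest fitted differences from control, taken from RefSeq (GRCm38.p6). Capitals mark TGCCGC, the core of the methylated site bound by ZFP57, which keeps methylation at imprinted control regions, or TAATCC, a site of CRX and OTX homeodomains. Both were searched on both strands, they do not overlap each other, and they appear as GCGGCA and GGATTA where the match is on the other strand. The first sequence is the stretch between the RefSeq starts of Peg3 and Usp29 at chr7:6730420-6730582, the second the 250 bases before the RefSeq start of Zim1 at chr7:6696433-6696682, both on the minus strand (the Zim1 exons of the count table reach into the latter), and the third the 250 bases before the second start of Mest at chr6:30737800-30738049 on the plus strand.
Peg3 and Usp29: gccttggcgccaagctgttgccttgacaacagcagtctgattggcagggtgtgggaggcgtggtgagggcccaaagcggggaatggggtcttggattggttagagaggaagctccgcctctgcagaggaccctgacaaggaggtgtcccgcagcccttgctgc
Zim1: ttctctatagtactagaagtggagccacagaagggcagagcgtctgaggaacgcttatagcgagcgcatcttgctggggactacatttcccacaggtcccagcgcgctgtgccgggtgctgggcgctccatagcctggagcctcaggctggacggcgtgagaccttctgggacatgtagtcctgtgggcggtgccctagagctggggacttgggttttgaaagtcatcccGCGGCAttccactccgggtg
Mest: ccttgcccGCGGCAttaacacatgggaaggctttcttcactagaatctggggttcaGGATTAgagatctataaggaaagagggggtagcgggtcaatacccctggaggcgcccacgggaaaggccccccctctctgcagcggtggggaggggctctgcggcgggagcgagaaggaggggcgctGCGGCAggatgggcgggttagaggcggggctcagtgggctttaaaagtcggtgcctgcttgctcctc
Neither motif is in the Peg3 and Usp29 stretch, 1 TGCCGC precedes Zim1, and 2 TGCCGC and 1 TAATCC precede Mest. Of 52 RefSeq promoter windows of the set, from 34 genes that include long non-coding RNAs and so are not the same 34 as those with counts, each 250 bases before to 50 after a start, 12 held TGCCGC (23.1%) and 6 held TAATCC (11.5%), beside 11.6% and 7.06% of all 32851 windows. Windows of Impact were left out of the 52 but not out of the 32851, so the shares do not rest on the same selection. The difference between these shares was not tested. Genes with several starts have windows that overlap, and a match is a description of letters, not a bound site.

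Igf2, a fetal growth factor, was the highest imprinted gene in control cells, at 923 ± 199 FPKM (SD, n = 3). It was followed by Grb10, an adaptor that restrains insulin signalling, at 205 ± 20.2 FPKM, and by Gnas, which encodes a stimulatory G protein subunit, at 126 ± 9.34 FPKM. Each of these first 2 gaps in level was larger than the SD of either gene, whereas from Gnas down to Impact no neighbour in the order differed by more than the larger SD. That stretch held Igf2r, the receptor that clears Igf2, at 92.5 ± 40.5 FPKM, the hydrolase-like gene Mest at 63.7 ± 18.5 FPKM, the growth suppressor Ndn at 58.6 ± 8.05 FPKM, the Notch-related membrane protein Dlk1 at 44.4 ± 16.4 FPKM, the zinc finger gene Plagl1 at 40.3 ± 12.4 FPKM and the translation regulator Impact at 34.7 ± 2.58 FPKM. Igf2 alone made up 25.6 to 51.5% of the summed CPM of the set, lowest in eutherian CRX replicate 3 and metatherian CRX replicate 3. At the other end of the threshold, Slc22a18 was at 2.43 FPKM and Zim1 at 2.21 FPKM in control, just inside it, and Peg12 at 1.85 FPKM and Nnat at 1.30 FPKM just outside. Zim1 passed the minimum in control only and Slc22a18 in control and metatherian CRX only, so that for these genes the filter favoured a lower value with eutherian CRX.

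**Figure D1:**
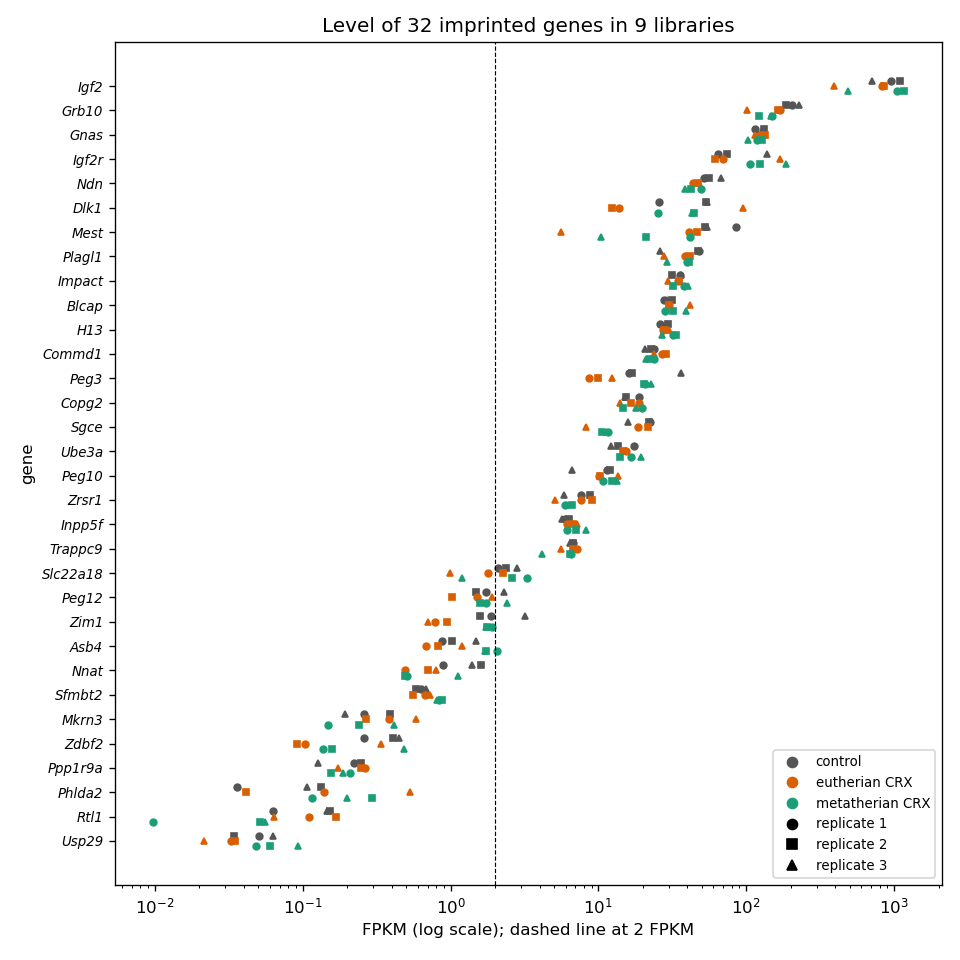
FPKM (log scale) of the 32 imprinted genes with enough counts, in each of the 9 libraries, ordered by the mean over all libraries, with colour for the condition, shape for the replicate number and a dashed line at 2 FPKM. Levels run from Igf2 down to Usp29, and the libraries of Mest, Dlk1 and Igf2r are spread more widely than those of Gnas, H13 and Commd1.

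No imprinted gene passed the edgeR test at an adjusted p under 0.05 in any of the 3 comparisons. The DESeq2 Wald test, run as an alternative, called 2 with eutherian CRX (Peg3 and Zim1) beside 3.29% of all genes, 3 with metatherian CRX (Igf2r, Mest and Sgce) beside 9.93%, and 3 between the CRX proteins (Peg3, Zim1 and Igf2r) beside 3.18%. With eutherian CRX against control, 0 of 22 were called by edgeR, where 0.609% of all genes tested were. At an unadjusted p under 0.05, 1 was higher (Commd1) beside 2.23% of all genes, and 6 were lower (Peg3, Zim1, Igf2, Mest, Grb10 and Ndn) beside 6.4%. The 3 eutherian CRX libraries lay below all control libraries for 5 of 22 genes (Peg3, Zim1, Mest, Grb10 and Ndn) beside 7.84% of all genes, and above them for 0 beside 6.19%. Both counts of lower genes include Zim1, which reached the FPKM minimum in control only, so that they lend no support to a difference of the set from other genes.

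With metatherian CRX against control, edgeR called 0 of 22, and 0.0295% of all genes. At the unadjusted line Igf2r was higher, beside 9% of all genes, and 4 genes were lower (Mest, Sgce, Ndn and Grb10), or 18.2% beside 10.5%. The same 4 genes had metatherian CRX libraries below all control libraries, beside 12.3% of all genes, and 0 had them above, beside 11.1%. Between the CRX proteins edgeR called 0 of 22 genes, and 0% of all genes. Higher with metatherian than with eutherian CRX at the unadjusted line were Peg3, Zim1 and Igf2r, beside 7.42% of all genes, and lower was Commd1, beside 4.17%. Peg3 and Zim1 were also higher in all 3 metatherian CRX libraries than in any eutherian CRX library, beside 6.22% of all genes, and Commd1 was lower in all 3, beside 5.33%. Both comparisons with control use the same control libraries, so that their lists are not independent of each other.

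**Figure D2:**
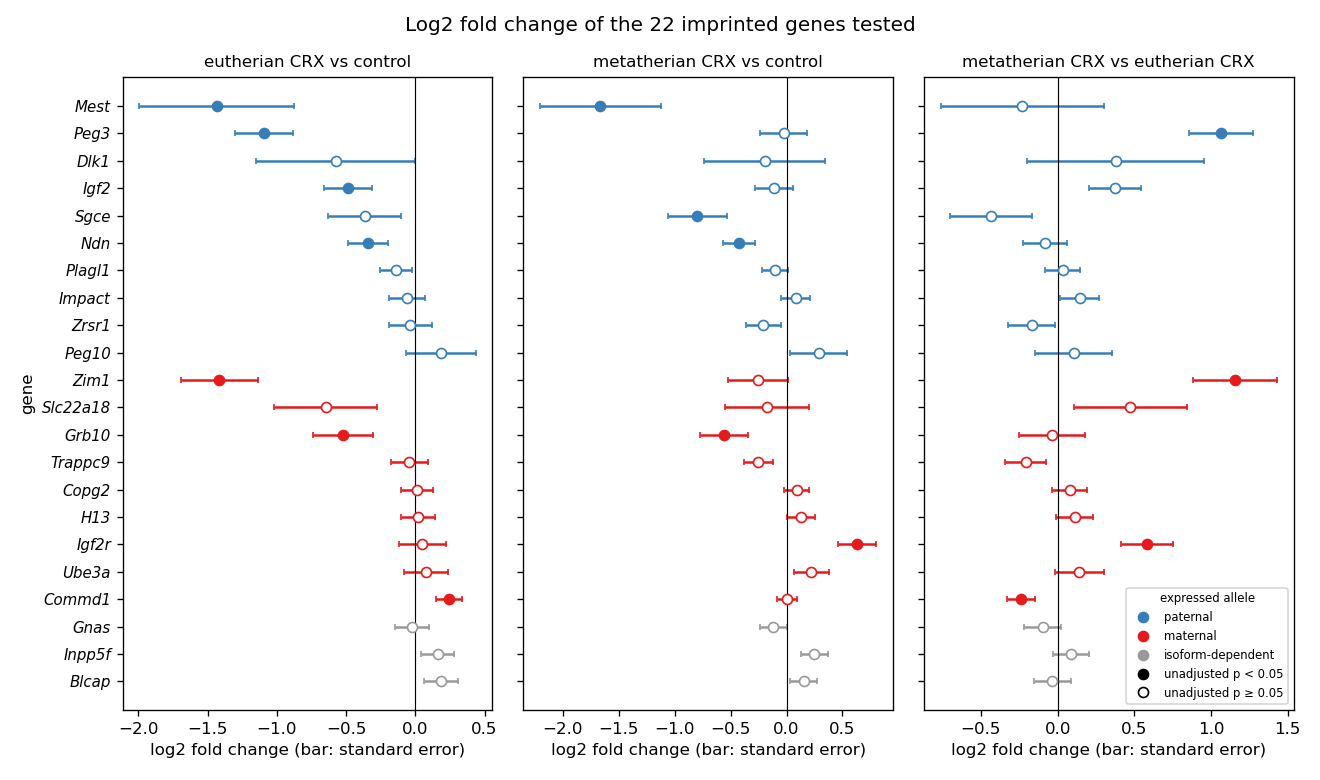
Log2 fold change with its standard error from edgeR for the 22 imprinted genes tested in the 3 comparisons, coloured by the allele known to be expressed and filled where the unadjusted p was under 0.05. Peg3 and Zim1 lie far below 0 for eutherian CRX but near 0 for metatherian CRX, whereas Mest lies below 0 for both.

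Grouped by expressed allele, the median fitted log2 change of the 10 paternally expressed genes was -0.35 in eutherian CRX cells, where 9 were lower and 1 was higher, and -0.15 in metatherian CRX cells, where 8 were lower and 2 higher. The 9 maternally expressed genes had medians of 0.013 and 0.0020, with 5 higher and 4 lower in each comparison, and the 3 isoform-dependent genes 0.16 and 0.15. The median over all genes tested was 0.0016 and -0.0082. All 10 paternal genes are known for a parental bias in many tissues, but 5 of the 9 maternal genes (Copg2, Ube3a, Commd1, H13 and Trappc9) for one limited to some tissues or isoforms. Those 5 had medians of 0.019 and 0.090, whereas the other 4 (Igf2r, Zim1, Slc22a18 and Grb10) had medians of -0.58 and -0.21, with 3 lower and 1 higher in each comparison. The filter favoured low eutherian values for Zim1 and Slc22a18, and of the other pair Igf2r was at 0.05 and Grb10 at -0.52 with eutherian CRX, so that these medians support no contrast. All limited genes among those tested are maternal or isoform-dependent, and allele and breadth of imprinting cannot be told apart here. By breadth alone, the median was -0.43 and -0.18 for the 14 genes with a wide bias and 0.049 and 0.11 for the 8 with a limited one. The difference between the allele groups was not tested. Each CRX library was also set against the mean of the control libraries, not against the control of its own number. The paternal median for eutherian CRX was then -0.11, -0.039 and -0.51 in replicates 1, 2 and 3, and for metatherian CRX -0.14, -0.10 and -0.33. Replicate 3 thus held the lowest paternal value in both comparisons.

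In the Peg3 domain, Peg3 and Zim1 had their lowest levels in the eutherian CRX libraries, without passing the adjusted test. Peg3 encodes a paternally expressed zinc finger protein, and its level in replicates 1, 2 and 3 was 107, 111 and 241 CPM in control, 57.2, 65.8 and 82.3 CPM in eutherian CRX and 137, 134 and 151 CPM in metatherian CRX. All eutherian CRX libraries were below all others, while the metatherian CRX libraries lay within the range of control. The log2 fold change of Peg3 was -1.09 ± 0.21 (SE) for eutherian CRX against control (unadjusted p = 0.0013, edgeR adjusted p = 0.11), -0.03 for metatherian CRX against control, and 1.07 ± 0.21 for metatherian against eutherian CRX (unadjusted p = 0.0014, edgeR adjusted p = 0.27).

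Zim1, another zinc finger gene of the domain, is maternally expressed and starts 9421 bases beyond the end of Peg3 on the same strand. It was at 11.7, 9.86 and 19.8 CPM in control, 4.89, 5.88 and 4.36 CPM in eutherian CRX and 11.9, 11.01 and 10.9 CPM in metatherian CRX. The eutherian CRX libraries again lay below all others. The log2 fold change of Zim1 was -1.41 ± 0.28 for eutherian CRX against control (edgeR adjusted p = 0.12) and 1.16 ± 0.27 for metatherian against eutherian CRX (edgeR adjusted p = 0.27). Zim1 was tested only because control exceeded the FPKM minimum, which favours such a value, and it lends no support to that of Peg3.

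Usp29, a ubiquitin protease gene read from the paternal copy, starts 141 bases from Peg3 in the count table, inside the stretch between the RefSeq starts printed above, and runs in the opposite direction. Its level was far lower, at 0.41, 0.28 and 0.51 CPM in control, 0.26, 0.28 and 0.17 CPM in eutherian CRX and 0.39, 0.48 and 0.75 CPM in metatherian CRX. The eutherian CRX libraries overlapped control but were below the metatherian CRX libraries. In the fit of 14599 genes with no FPKM minimum, the log2 fold change of Usp29 was -0.65 ± 0.44 for eutherian CRX against control (unadjusted p = 0.18, edgeR adjusted p = 0.73) and 1.12 ± 0.44 for metatherian against eutherian CRX (unadjusted p = 0.036, edgeR adjusted p = 0.39). The ratio of Peg3 to Zim1 was 9.15 to 12.2 in control, 11.2 to 18.9 in eutherian CRX and 11.5 to 13.8 in metatherian CRX.

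Control replicate 3 held the highest Peg3 and Zim1 values of all libraries. Without it the log2 fold change of Peg3 for eutherian CRX was -0.78, and Zim1 was under the FPKM minimum and left the fit. With metatherian CRX replicate 3 left out, the difference of Peg3 between the CRX proteins was 1.26 (edgeR adjusted p = 0.043). Without any library numbered 3, Peg3 was -0.83 for eutherian CRX (edgeR adjusted p = 0.0084) and 0.31 for metatherian CRX (edgeR adjusted p = 0.037). Between the CRX proteins it then differed by 1.15 (edgeR adjusted p = 5.5e-04). That fit also called a far larger share of all genes in each comparison than the fit of all libraries.

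**Figure D3:**
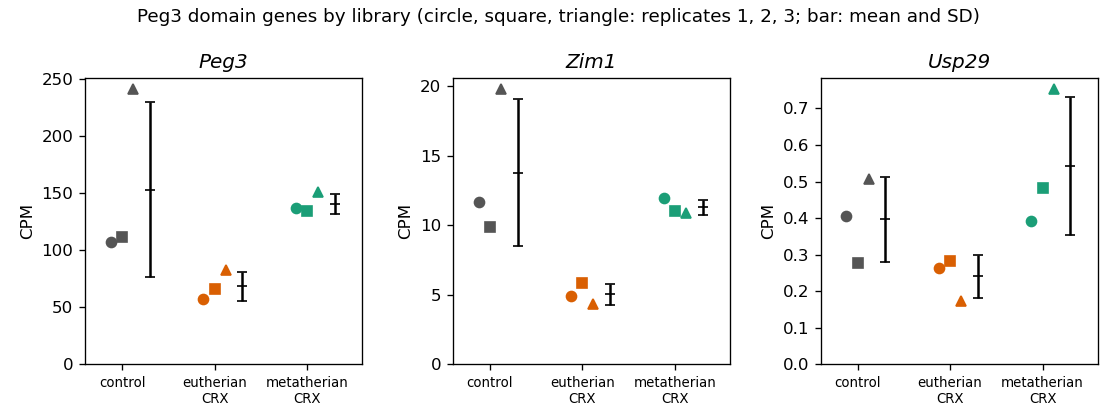
CPM of Peg3, Zim1 and Usp29 in each library, with circle, square and triangle for replicates 1, 2 and 3 and a bar for the mean and SD of 3 libraries. The eutherian CRX libraries of Peg3, at 57.2 to 82.3 CPM, and of Zim1, at 4.36 to 5.88 CPM, are below every other library.

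Sgce and Peg10 are paternally expressed neighbours on chromosome 6 whose starts lie 101 bases apart and point away from each other. Sgce encodes a sarcoglycan of the cell membrane. It was at 56.9, 55.9 and 40.5 CPM in control, 47.4, 55.4 and 21.1 CPM in eutherian CRX and 29.5, 26.8 and 29.3 CPM in metatherian CRX. All metatherian CRX libraries were below all control libraries, and eutherian CRX replicate 3 was lower still. The log2 fold change of Sgce was -0.80 ± 0.26 for metatherian CRX (unadjusted p = 0.020, edgeR adjusted p = 0.18) and -0.36 ± 0.26 for eutherian CRX, and the CRX proteins differed by -0.43 ± 0.27 (edgeR adjusted p = 0.58).

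Peg10, a gene derived from a retrotransposon and needed in the placenta, was at 76.4, 80.4 and 44.0 CPM in control, 67.8, 68.6 and 90.3 CPM in eutherian CRX and 72.2, 82.6 and 89.5 CPM in metatherian CRX, so that all conditions overlapped. The log2 fold change of Peg10 was 0.29 ± 0.25 for metatherian CRX and 0.18 ± 0.25 for eutherian CRX. The ratio of Sgce to Peg10 was 0.745, 0.695 and 0.921 in control, 0.698, 0.808 and 0.233 in eutherian CRX and 0.408, 0.324 and 0.327 in metatherian CRX. The metatherian CRX ratios were below all others apart from eutherian CRX replicate 3. This ratio was formed after the values had been seen and was not tested. Without eutherian CRX replicate 3, Sgce for eutherian CRX was at a log2 fold change of -0.04, and for metatherian CRX at -0.82 (edgeR adjusted p = 0.028). Without all libraries numbered 3 the latter was -1.003 (edgeR adjusted p = 0.0014), and metatherian differed from eutherian CRX by -0.86 (edgeR adjusted p = 0.0026).

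Asb4, a maternally expressed gene of the same region, encodes a subunit of a ubiquitin ligase and lay below the FPKM minimum. It was at 2.87, 3.36 and 4.89 CPM in control, 2.24, 2.69 and 3.95 CPM in eutherian CRX and 6.77, 5.73 and 5.64 CPM in metatherian CRX, whose libraries were above all others. In the fit of 14599 genes its log2 fold change was 0.78 for metatherian CRX against control (edgeR adjusted p = 0.15) and 1.09 against eutherian CRX (edgeR adjusted p = 0.27).

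Mest, Grb10 and Ndn were lower than control in every library of both CRX conditions. Mest was at 236, 145 and 150 CPM in control, 114, 130 and 15.4 CPM in eutherian CRX and 117, 58.5 and 28.7 CPM in metatherian CRX. Its log2 fold change was -1.43 ± 0.56 for eutherian CRX (unadjusted p = 0.038, edgeR adjusted p = 0.54) and -1.67 ± 0.54 for metatherian CRX (unadjusted p = 0.018, edgeR adjusted p = 0.17). The lowest libraries were replicates 3, and without eutherian CRX replicate 3 the eutherian value was -0.78, while without control replicate 3 the values were -0.80 and -0.89. The metatherian value of Mest was -1.54 without eutherian CRX replicate 3 (edgeR adjusted p = 0.039) and -1.15 without all libraries numbered 3 (edgeR adjusted p = 0.018). Without the replicate block the eutherian value was -1.04 (edgeR unadjusted p = 0.19) and the metatherian value -1.38 (edgeR unadjusted p = 0.096). Mest shares 32.9% of its exon length with Copg2, a coat protein gene on the opposite strand, and the strand setting of the counting is not given in the sources used here. Copg2 itself, with a level of 65.8 ± 8.06, 66.4 ± 9.48 and 70.0 ± 10.1 CPM (SD, n = 3) in control, eutherian CRX and metatherian CRX, had log2 fold changes of 0.01 and 0.09.

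Grb10 was at 1060, 977 and 1187 CPM in control, 880, 857 and 527 CPM in eutherian CRX and 787, 635 and 773 CPM in metatherian CRX. The log2 fold change of Grb10 was -0.52 ± 0.22 for eutherian CRX (edgeR adjusted p = 0.57) and -0.56 ± 0.21 for metatherian CRX (edgeR adjusted p = 0.22). Without eutherian CRX replicate 3 these were -0.24 and -0.55 (edgeR adjusted p = 0.027 for the latter), and without all libraries numbered 3 they were -0.23 and -0.52 (edgeR adjusted p = 0.011 for the latter). Ndn was at 85.9, 93.1 and 112 CPM in control, 71.7, 78.0 and 78.8 CPM in eutherian CRX and 81.9, 70.4 and 63.4 CPM in metatherian CRX. Its log2 fold change was -0.34 ± 0.14 for eutherian CRX (edgeR adjusted p = 0.58) and -0.43 ± 0.14 for metatherian CRX (edgeR adjusted p = 0.19). Without control replicate 3 these were -0.20 and -0.29, without metatherian CRX replicate 3 the latter was -0.27, and without all libraries numbered 3 it was -0.23. For these genes the CRX proteins differed by -0.23 ± 0.53 (Mest), -0.04 ± 0.21 (Grb10) and -0.08 ± 0.14 (Ndn) on the log2 scale.

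**Figure D4:**
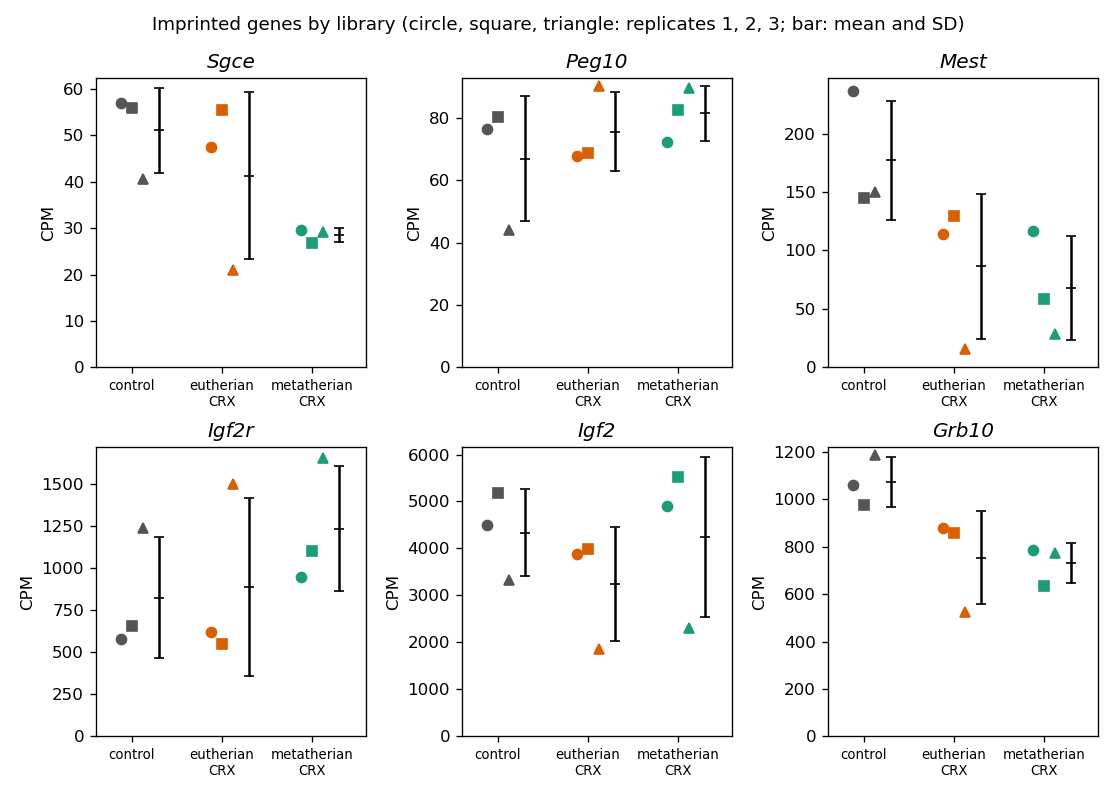
CPM of Sgce, Peg10, Mest, Igf2r, Igf2 and Grb10 in each library, with circle, square and triangle for replicates 1, 2 and 3 and a bar for the mean and SD of 3 libraries. Sgce sits at 26.8 to 29.5 CPM in metatherian CRX, below the control libraries, and the replicate 3 triangles of Igf2r and Igf2 are at opposite ends of their conditions.

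Igf2 and Igf2r, a growth factor and the receptor that removes it, moved apart with the replicate number. Igf2 was at 4494, 5180 and 3335 CPM in control, 3890, 3986 and 1855 CPM in eutherian CRX and 4900, 5517 and 2300 CPM in metatherian CRX. Igf2r was at 578, 659 and 1241 CPM in control, 619, 549 and 1501 CPM in eutherian CRX and 950, 1100 and 1654 CPM in metatherian CRX. In every condition replicate 3 had the lowest Igf2 and the highest Igf2r, and the ratio of the pair was 2.69, 1.24 and 1.39 in the libraries numbered 3 against 5.01 to 7.85 in the others.

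Within each replicate number Igf2r was higher in metatherian CRX than in both other conditions, although the conditions overlapped. The log2 fold change of Igf2r was 0.63 ± 0.17 for metatherian CRX against control (unadjusted p = 0.0078, edgeR adjusted p = 0.13) and 0.58 ± 0.17 against eutherian CRX (unadjusted p = 0.012, edgeR adjusted p = 0.31). Without eutherian CRX replicate 3 these were 0.63 (edgeR adjusted p = 0.031) and 0.76 (edgeR adjusted p = 0.048), and without the replicate block the first was 0.58 (edgeR adjusted p = 0.59). Without all libraries numbered 3 they were 0.73 (edgeR adjusted p = 0.0063) and 0.81 (edgeR adjusted p = 0.0047). Igf2 was lower with eutherian CRX than control in each replicate number, with a log2 fold change of -0.49 ± 0.17 (unadjusted p = 0.026, edgeR adjusted p = 0.48), and was -0.11 ± 0.17 with metatherian CRX. Without control replicate 3 the eutherian value was -0.28, and without the replicate block it was -0.42 (edgeR unadjusted p = 0.32). The CRX proteins differed by 0.37 ± 0.17 in Igf2 (edgeR adjusted p = 0.46), and by 0.40 without all libraries numbered 3 (edgeR adjusted p = 0.037).

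Dlk1 varied most after Mest. It was at 123, 258 and 261 CPM in control, 66.2, 59.2 and 455 CPM in eutherian CRX and 122, 213 and 207 CPM in metatherian CRX. Eutherian CRX held both the lowest libraries and the highest, and the log2 fold change was -0.58 ± 0.58 for that condition and -0.20 ± 0.54 for metatherian CRX. Without the libraries numbered 3, Dlk1 was at -1.49 with eutherian CRX (edgeR adjusted p = 0.038) and metatherian exceeded eutherian CRX by 1.32 (edgeR adjusted p = 0.014). Rtl1, a retrotransposon-derived gene of the same domain, was at 0.33, 0.81 and 0.77 CPM in control, 0.58, 0.88 and 0.33 CPM in eutherian CRX and 0.051, 0.27 and 0.29 CPM in metatherian CRX, and its log2 fold change with metatherian CRX was -1.68 in the fit of 14599 genes (edgeR adjusted p = 0.17).

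The other imprinted genes with high levels showed small differences. Gnas was at 1455, 1669 and 1649 CPM in control, 1562, 1695 and 1454 CPM in eutherian CRX and 1501, 1608 and 1299 CPM in metatherian CRX, with overlapping libraries. Plagl1 was at 253, 247 and 137 CPM in control, 204, 219 and 145 CPM in eutherian CRX and 209, 215 and 154 CPM in metatherian CRX, lowest in replicate 3 of each. Impact was at 221, 195 and 224 CPM, 213, 216 and 182 CPM, and 233, 195 and 250 CPM in the same order of conditions. Their fitted log2 fold changes against control lay between -0.14 and 0.08.

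Blcap, which surrounds the paternally expressed Nnat on chromosome 2, was at 74.9, 84.8 and 79.1 CPM in control, 80.8, 81.6 and 113 CPM in eutherian CRX and 76.8, 85.9 and 106 CPM in metatherian CRX. Nnat, a membrane proteolipid best known from neurons, was at 1.18, 2.13 and 1.88 CPM in control, 0.66, 0.94 and 1.07 CPM in eutherian CRX and 0.68, 0.66 and 1.49 CPM in metatherian CRX. Nnat was thus below all control libraries with eutherian CRX but overlapped with metatherian CRX, and its log2 fold changes in the fit of 14599 genes were -0.95 (edgeR adjusted p = 0.37) and -0.90 (edgeR adjusted p = 0.18). Commd1, a copper homeostasis gene, was at 47.7, 45.5 and 40.95 CPM in control, 53.6, 57.5 and 47.7 CPM in eutherian CRX and 47.4, 44.8 and 42.1 CPM in metatherian CRX. Its difference of 0.24 ± 0.09 with eutherian CRX (edgeR adjusted p = 0.52) was small beside those above, and 27.0% of its exon length is shared with Zrsr1, an intron-nested splicing factor gene on the opposite strand.

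The remaining genes tested were H13, Ube3a, Zrsr1, Inpp5f, Trappc9 and Slc22a18. Their log2 fold changes against control lay between -0.65 and 0.25, and the lowest of them was Slc22a18, an organic cation transporter, with eutherian CRX. Zrsr1 was called by edgeR with metatherian CRX, and between the CRX proteins, without all libraries numbered 3. In replicates 1 and 2 it was at 34.1 and 39.2 CPM in control, 34.3 and 40.9 CPM in eutherian CRX and 26.9 and 29.9 CPM in metatherian CRX. That fit called a far larger share of all genes as well, as given at the end. Among the 10 genes under the FPKM minimum, edgeR called 0 in the fit of 14599 genes, which called 0.623% of all genes with eutherian CRX, 0.0137% with metatherian CRX and 0% between them. At an unadjusted p under 0.05, 0 were higher with eutherian CRX beside 2.49% of all genes, and 2 were lower (Zdbf2 and Nnat) beside 7.16%. With metatherian CRX 2 were higher (Asb4 and Sfmbt2) beside 9.61% and 2 lower (Rtl1 and Nnat) beside 10.8%. Between the CRX proteins 3 were higher with metatherian CRX (Asb4, Sfmbt2 and Usp29) beside 7.41% and 1 was lower (Rtl1) beside 4.26%.

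Zdbf2, a zinc finger gene, was at 3.47, 5.40 and 5.99 CPM in control, 1.37, 1.22 and 4.52 CPM in eutherian CRX and 1.82, 2.09 and 6.503 CPM in metatherian CRX. Its conditions overlapped, and its log2 fold change with eutherian CRX was -1.31 (edgeR adjusted p = 0.22). Sfmbt2, a Polycomb-related gene, was at 9.92, 9.17 and 10.7 CPM in control, 10.6, 8.83 and 11.5 CPM in eutherian CRX and 13.2, 13.9 and 12.8 CPM in metatherian CRX. All metatherian CRX libraries were above the others, with a log2 fold change against control of 0.45 (edgeR adjusted p = 0.15). Snrpn counts of 1 to 6 do not give its level, since 82.8% of its exon length is shared with Snurf on the same strand.

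The imprinted genes tested varied somewhat more among libraries of a condition than genes at large, with a median SD of 0.29 on the log2 scale beside 0.216 over all genes tested. Mest had an SD of 1.17 and Dlk1 of 1.05, whereas Commd1 had 0.114 and Gnas 0.128. Replicate 3 was above the mean log2 CPM of the other two libraries in every condition for 3 of 22 genes (Igf2r, Dlk1 and Peg3), or 13.6%, beside 18.5% of all genes, and below that mean for 6 (Igf2, Mest, Plagl1, Zrsr1, Commd1 and Trappc9), or 27.3%, beside 18.8%.

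**Figure D5:**
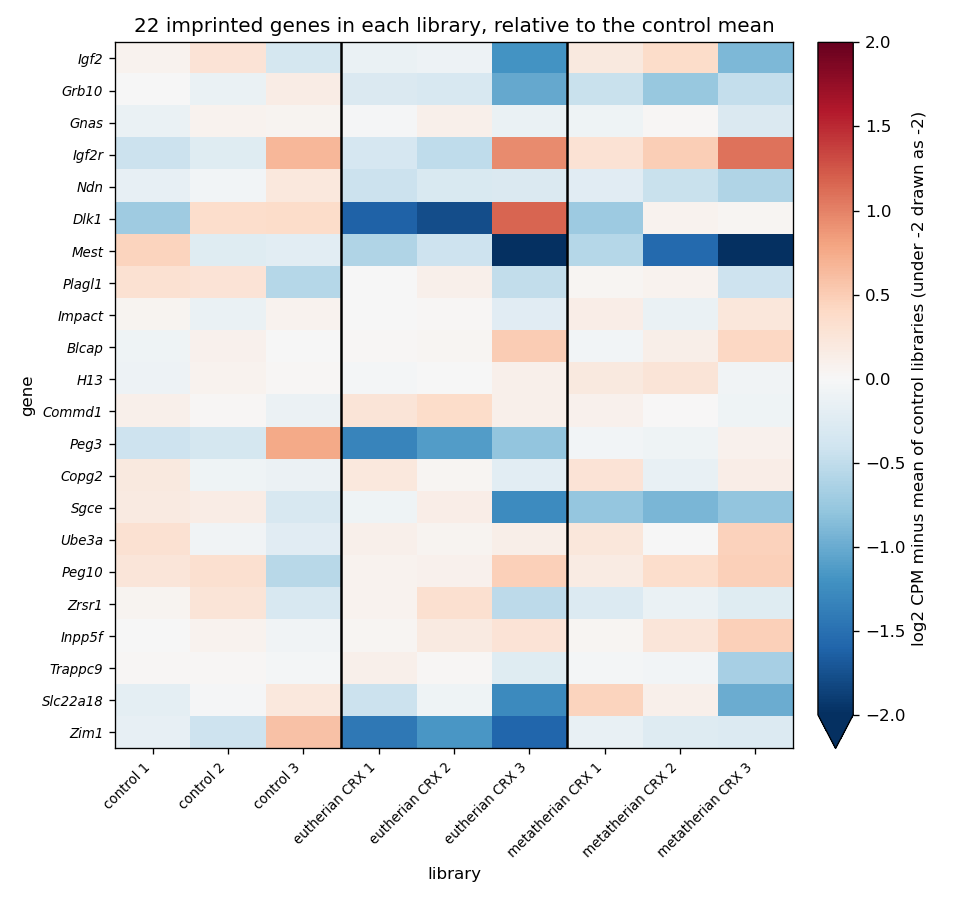
Log2 CPM of the 22 imprinted genes tested in each library minus the mean of the control libraries, with values under -2 drawn as -2. Mest is bluest in eutherian CRX replicate 3 and metatherian CRX replicate 3, and the Peg3 and Zim1 rows are blue in all eutherian CRX libraries.

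A second list, of imprinted genes outside the set, gave no called gene among the 24 tested of 48 listed. This list was not divided by expressed allele or by breadth of imprinting. In metatherian CRX cells 3 were higher (12.5%, beside 9% of all genes) and 4 lower (16.7%, beside 10.5%) at the unadjusted line, and the median log2 fold change was -0.083. With eutherian CRX, 0 were higher, beside 2.23%, and 3 lower (12.5%, beside 6.4%), with a median of -0.15. Between the CRX proteins, the unadjusted line was passed by 6 upwards (25.0%, beside 7.42%) and 1 downwards (4.17%, beside 4.17%), and the median was 0.034. Its extremes with metatherian CRX were the matrix proteoglycan Dcn, at -1.98, and the chloride channel Ano1, at 1.72, and with eutherian CRX the growth-restraining cell cycle inhibitor Cdkn1c, at -0.94, and Ano1, at 0.54. Dcn was at 480, 427 and 213 CPM in control, 353, 437 and 160 CPM in eutherian CRX and 63.7, 44.0 and 168 CPM in metatherian CRX, so that all metatherian CRX libraries were below all control libraries.

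Genes that write or keep imprints were read from a further list of 26, of which 21 were tested and 0 called. With each CRX protein 5 were lower (23.8%, beside 10.5% of all genes with metatherian and 6.4% with eutherian CRX) and 0 higher at the unadjusted line, and the medians were -0.069 with metatherian CRX and -0.046 with eutherian CRX. The lowest in both was Uhrf1, which brings the maintenance methyltransferase to newly copied DNA, at -1.01 and -1.09. It was at 15.6, 18.4 and 14.7 CPM in control, 7.72, 7.16 and 8.12 CPM in eutherian CRX and 8.94, 6.31 and 9.18 CPM in metatherian CRX. The highest were the Polycomb gene Suz12, at 0.20 with metatherian CRX, and the demethylation enzyme gene Tet2, at 0.19 with eutherian CRX. Uhrf1 is known to rise in dividing cells, and the 9 proliferation markers tested had fitted values below 0 in both comparisons. The summed level of the 10 listed was 246 to 330 CPM in control, 125 to 163 CPM in eutherian CRX and 144 to 209 CPM in metatherian CRX. Of these, Mki67, Top2a and Bub1 fell with eutherian CRX by edgeR's adjusted p.

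Markers of other cell types were low beside the fibroblast list. The summed levels in control, eutherian CRX and metatherian CRX were 14.5 to 47.0, 8.61 to 26.7 and 6.81 to 13.9 CPM for 8 macrophage genes, 26.6 to 110, 15.4 to 33.3 and 16.0 to 29.4 CPM for 6 skeletal muscle genes, and 36.8 to 91.6, 24.3 to 140 and 81.3 to 128 CPM for 6 neural genes. Endothelial genes summed to 11.4 to 18.7 CPM, epithelial genes to 0.491 to 12.7 CPM and trophoblast genes to 0.701 to 2.20 CPM, with the trophoblast marker Tpbpa at 0 in all libraries. The part of these markers, of proliferation and of the fibroblast markers in the differences of the imprinted genes was not tested.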

How the data were processed

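The data were 9 polyA RNA-seq libraries of MEFs, 3 of each condition. Per the study's methods and the labels, the authors aligned paired reads to mm10 with STAR and deposited raw counts per gene from featureCounts, neither normalized nor pooled. The strand setting and annotation release are not given in the sources used here, and the table held 22068 rows, of which 19893 are protein coding in RefSeq. FPKM was computed here from the counts, with merged exon lengths on placed chromosomes only, because copies on alternative scaffolds lengthened Igf2r, Dlk1 and Rtl1.

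Counts were analysed with edgeR 4.0.16 in R 4.3.3. filterByExpr kept 14599 genes, and a mean above 2 FPKM in at least 1 condition left 10177, including 22 imprinted genes. The quasi-likelihood test (glmQLFit, glmQLFTest) used TMM factors, which were 0.960 to 1.11, all 9 libraries and the replicate number as a block, with Benjamini-Hochberg adjustment over all 10177 genes. CPM used TMM-scaled library sizes. The standard error is the size of the log2 fold change over the square root of F. Simulated counts for metatherian CRX against control had 200 of 10177 genes changed by a log2 fold of 2. Of these, edgeR recovered 198 with 12 false calls, and DESeq2 1.42.0 recovered 199 with 64. Such a fold is larger than that of any imprinted gene in the main fit, and the recovery of smaller changes was not measured. Log2 CPM values, and the deviations and log2 SDs taken from them, used a prior count of 2, on which those of genes with few counts depend. That prior count was not set in the fits that gave the fold changes. A count of 0 allows up to 3 counts, for counting error only.

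The block follows the study's statement that samples were prepared and analysed in pairs. Deviations from the condition mean correlated above 0.1 in 8 of 9 same-numbered pairs of libraries, with a lowest value of 0.0054, and in 5 of 18 others, which leaves unproven that equal numbers mark a pair. Replicate libraries differed beyond counting error, the chi-square divided by its degrees of freedom being at least 22.2.

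The imprinted genes and all gene lists were chosen with earlier results of these data known. The expressed allele is textbook knowledge. Values in every library are given for genes at an unadjusted p under 0.05 in the test of 10177 genes. The 10 highest in FPKM are treated likewise. They are also given for Igf2, Igf2r, Dlk1, Peg3, Zim1, Peg10, Asb4, Nnat and Blcap, whose clusters hold genes of differing parental expression. Beyond this rule they are given for Usp29, Rtl1, Zdbf2 and Sfmbt2, chosen after their values were seen. From each list the called genes or the extremes are named. Alternatives were no block, other filters and scalings, DESeq2, only the 6 libraries compared, and leaving out each library. FPKM over all exon copies and leaving out all libraries of one number were added after the data had been seen. Adgre1 was listed under its older name Emr1.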

Additional observations from a re-analysis of the deposited data

How the results depend on the processing

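Without the replicate block, the imprinted genes at an unadjusted p under 0.05 numbered 3 with metatherian CRX, 4 with eutherian CRX and 2 between the CRX proteins of 22 (13.1%, 6.09% and 6.46% of all genes), 0 were called by edgeR in each, and the difference of Dlk1 between the proteins was -0.10. Without the FPKM minimum the count was 9 with metatherian CRX and 8 between the proteins among 32 genes (20.4% and 11.7% of all genes), and without any filter also 9 and 8 among 34 (16.9% and 9.69%), with Peg3 at 0.0038 for metatherian CRX and Gnas at 0.0016 for eutherian CRX. With only the 6 libraries compared it was 3 with eutherian CRX (8.62%). Upper-quartile scaling put Commd1 at -0.022 for metatherian CRX and Plagl1 at -0.0019 between the proteins. The DESeq2 Wald test called 3 genes with metatherian CRX (Igf2r, Mest and Sgce, beside 9.93% of all genes), 2 with eutherian CRX (Peg3 at an adjusted p of 1.3e-04 and Zim1 at 1.6e-04, beside 3.29%) and 3 between the proteins (Igf2r, Peg3 and Zim1, beside 3.18%). The causes were not tested. Of 360 values of single genes under the 8 settings that keep all libraries, 347 kept their direction and side of the threshold.

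Over the 12 fits that left out a library or all libraries of one number, called genes ranged from 0 to 6 with metatherian CRX, 0 to 2 with eutherian CRX and 0 to 6 between the proteins, and genes at the unadjusted line from 1 to 8, 2 to 7 and 2 to 10. The highest counts of calls came without the libraries numbered 3, where 22.2%, 2.96% and 22.4% of all genes were called. Leaving out eutherian CRX replicate 3 gave 4 called genes with metatherian CRX beside 8.84% of all genes. The median of the set ranged from -0.17 to -0.0023 with metatherian CRX and from -0.028 to 0.13 between the proteins, and that of the maternal genes between the proteins from -0.029 to 0.21. Directions turned in some of these fits for Dlk1 (-1.51 to 0.072 with eutherian CRX, -0.51 to 0.22 with metatherian CRX, -0.24 to 1.32 between the proteins), Peg10 (-0.20 to 0.40, -0.053 to 0.49, -0.038 to 0.37) and Impact (-0.19 to 0.072, -0.019 to 0.19, -0.0049 to 0.30). They also turned for Gnas (-0.091 to 0.077) and Igf2r (-0.13 to 0.22) with eutherian CRX, and for Igf2 (-0.24 to 0.11), Peg3 (-0.22 to 0.31) and Commd1 (-0.022 to 0.054) with metatherian CRX. Between the proteins they turned for Mest (-0.77 to 0.46), Grb10 (-0.31 to 0.18), Ndn (-0.25 to 0.066), Blcap (-0.12 to 0.072) and Plagl1 (-0.049 to 0.081). Depth limited genes under about 1 CPM, such as Usp29, Rtl1, Phlda2 and Magel2.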
